A study of Mus musculus with 3 samples.

Results

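The genes of the interferon-induced transmembrane family Ifitm1, Ifitm2, Ifitm3 and Ifitm6 were followed across the cell states of mouse bone marrow progenitors. They were chosen by name: the table of RNA counts holds 28692 gene IDs, 7 of which are Ifitm genes, and the 4 described here were all found in it by symbol. The cells were wild-type C57BL/6 marrow cells called modified GMP in the labels (GMP is the usual short form of granulocyte-monocyte progenitor), enriched with CD117 beads, stained with tagged antibodies and sorted. CITE-seq counts transcripts and antibody tags in the same cells, here for CD117, CD11b, Ly-6C and Ly-6G. There was 1 female and 1 male mRNA library, with no treatment and no mutant, and the sources used here do not give the age or number of mice. Female and male antibody tags went into 1 pooled library, with counts deposited per cell. The authors placed each of 11132 cells in 1 of 17 named clusters.

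Ifitm proteins are small membrane proteins best known for hindering the entry of enveloped viruses into cells. IFITM1 is found largely at the cell surface, whereas IFITM2 and IFITM3 are found largely in endosomes and lysosomes. Interferons raise the transcription of the classical members through binding sites for the transcription factor complex ISGF3, and stem cells are known to keep some of these genes on without added interferon. Less is known of IFITM6.

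The 4 genes are close neighbours on chromosome 7 of the mouse build GRCm38.p6, the same build as mm10. Ifitm2 (ENSMUSG00000060591) was annotated by RefSeq at chr7:140954837-140959686, Ifitm1 (ENSMUSG00000025491) at chr7:140967429-140969827, Ifitm3 (ENSMUSG00000025492) at chr7:141009590-141010744 and Ifitm6 (ENSMUSG00000059108) at chr7:141015812-141016892. Together they span 62056 bases. The stretches below show how the starts of the 4 genes differ in the interferon response element on which the classical members depend. Each is the 100 bases before the RefSeq start, 5′ to 3′ on the gene's own strand, and for Ifitm3 also the first 30 transcribed bases, which belong to its 5′ UTR. The starts that RefSeq's table gives for Ifitm1 and Ifitm2 lie inside the annotated gene, which has a further start upstream. The upstream starts were not searched, so for Ifitm1 and Ifitm2 the matches describe only the start used. Capitals mark matches to the core of the interferon-stimulated response element, searched on both strands as GAAA, any 2 bases and GAAA.
Ifitm1, chr7:140967976-140968075, plus strand: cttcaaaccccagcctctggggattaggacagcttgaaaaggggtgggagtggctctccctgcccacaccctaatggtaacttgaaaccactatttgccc
Ifitm2, chr7:140955962-140956061, minus strand: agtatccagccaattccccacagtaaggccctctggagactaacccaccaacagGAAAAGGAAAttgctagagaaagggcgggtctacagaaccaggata
Ifitm3, chr7:141010745-141010844, minus strand: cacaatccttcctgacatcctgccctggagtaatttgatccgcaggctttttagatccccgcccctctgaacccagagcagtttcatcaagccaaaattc
Ifitm3, chr7:141010715-141010744, minus strand: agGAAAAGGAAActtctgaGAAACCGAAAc
Ifitm6, chr7:141016893-141016992, minus strand: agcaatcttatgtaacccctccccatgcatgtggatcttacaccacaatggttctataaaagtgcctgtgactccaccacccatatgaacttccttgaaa

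In the window of 300 bases from 250 before to 50 after the start, Ifitm2 had 1 match at position -46 and Ifitm3 had 2 matches, at positions 3 and 20, counting the first transcribed base as 1. The windows of Ifitm1 and Ifitm6 held no such match. Of 32851 windows of this length in RefSeq's table, 3.44% held the motif. The gamma-activated sequence TTCNNNGAA, found in 8.30% of windows, was present in Ifitm3 at position 14, where it overlaps the second response element, and in Ifitm6 at position -10. The GATA motif GATAA, found in 25.4% of windows, was present in Ifitm3 at position -234. The PU.1 motif GAGGAAGT (3.20% of windows) and the C/EBP motif TTGCNNAA (10.8%) were found in none of the 4. A match describes letters in a window and does not show that a factor binds there.

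The libraries held 4336 female and 6796 male cells, with medians of 21202 and 18687 UMIs per cell (UMI, unique molecular identifier, 1 per captured molecule), and 45 barcodes occurred in both. Depth differed between clusters: the median was 8298.5 (female) and 7140.5 (male) UMIs in HSCP-2, 27601.5 and 22359 in Gran-1, and 5844 and 5057 in Myelo-4. Levels are therefore given as CPM, UMIs of the gene per 1000000 UMIs of the cluster and library, with the female value first throughout. HSCP-1 (14 and 10 cells), DC (11 and 22), Myelo-4 (31 and 28) and Eryth (41 and 43) were small. The cluster names matched marker lists in rank: the summed CPM of 10 stem and multipotent genes was highest in HSCP-2 (2114 and 2182), and that of 9 late neutrophil genes was 44042 to 124379 in the Myelo clusters against at most 2623 elsewhere. The summed CPM of 9 monocyte genes was 2668 and 2335 in cMoP, but DC stood higher (2780 and 3475). HSCP-1 held 1956 and 1572 CPM of the stem and multipotent list. A list of 5 dendritic genes also summed to 319 and 2215 CPM in HSCP-1, against 122 and 117 in HSCP-2. Multi-Lin held basophil and mast cell transcripts (6 genes, 2212 and 2747 CPM). Of its cells 7.73% and 9.57% were Mcpt8-high (1000 CPM or more of Mcpt8). How much of the list came from them was not tested.

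Ifitm1 marked the stem end. It was highest in HSCP-2, the cluster richest in stem cell genes, at 1081 and 1339 CPM. HSCP-1 followed at 655 and 607 CPM, and Multi-Lin at 463 and 578 CPM. HSCP-2 stood above both of these in each library. Eryth was close to HSCP-1 in the mean, but its libraries were far apart, at 291 and 972 CPM. In the male library 3 of 43 Eryth cells held 39.5% of the Ifitm1 UMIs, and in the female library 3 of 41 held 50.3%. The top 13 of 256 female and 15 of 290 male HSCP-2 cells held 24.7% and 28.9%. In Multi-Lin the top 35 of 686 and 54 of 1066 cells held 32.8% and 33.6%.

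Among the other clusters Ifitm1 was 168 and 153 CPM in MDP, 120.1 and 123 in IG2, and 78.9 and 141 in Meg. MDP stood above IG2 in both libraries, whereas Meg overlapped IG2. MP (43.0 and 43.7 CPM) stood above Mono (37.3 and 34.8) in both libraries, and cMoP (51.2 and 30.3) overlapped each of them. The granulocytic clusters Gran-1 (26.4 and 27.0 CPM) and Gran-2 (18.2 and 20.5) came next, with Myelo-2 (16.3 and 21.2) and DC (9.62 and 16.6, from 1 and 3 UMIs) lowest. Over the 12 clusters with 50 or more cells in each library, the highest mean was 64.6 times the lowest. Of 256 and 290 HSCP-2 cells, 93.0% and 94.8% had an Ifitm1 UMI, against 45.2% and 33.2% in Gran-1. With each cell thinned to 5000 UMIs these shares were 87.4% and 87.2% against 12.3% and 10.4%.

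Some low levels of Ifitm1 came from few cells. In Myelo-3 it was 35.7 and 108 CPM, in Myelo-4 36.6 and 173, and in Myelo-1 34.5 and 58.9, with the male library higher each time. Of 991 female and 1295 male cells of the Myelo clusters, 7 and 22 had 10 or more Ifitm1 UMIs and together held 29.9% and 38.1% of that gene's UMIs. In those cells the basophil and mast cell list summed to 3291 and 4952 CPM, against 145 and 214 in the other Myelo cells, the stem and multipotent list to 769 and 619 against 80.4 and 144, and the late neutrophil list to 68610.4 and 59399 against 94273 and 88387. Whether these barcodes are single cells was not tested.

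**Figure D1:**
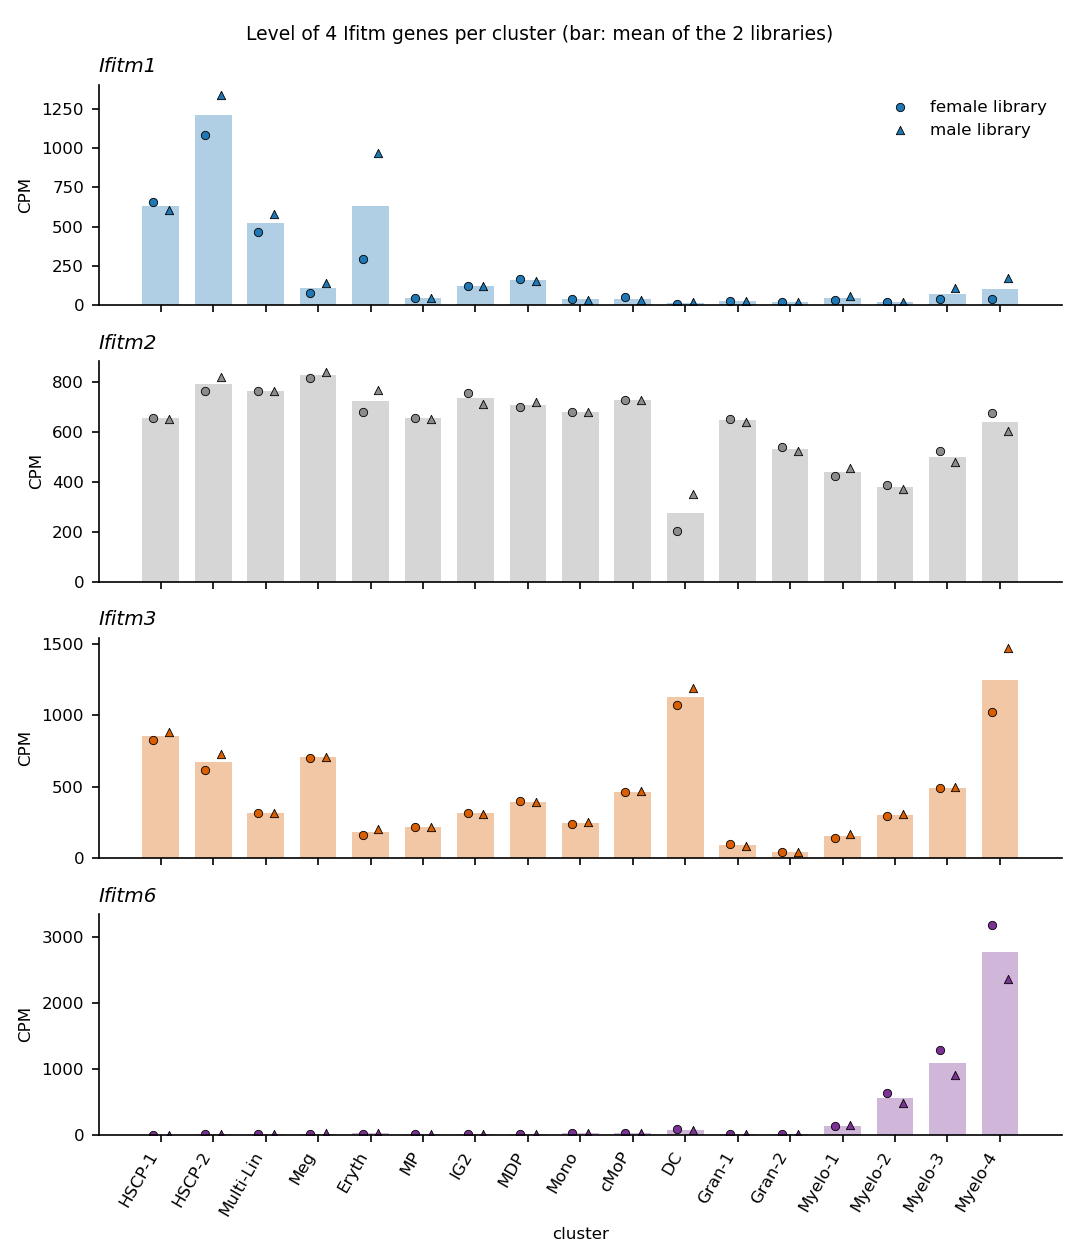
Level of each Ifitm gene in CPM (vertical axis, linear, 1 panel per gene) in the 17 clusters (horizontal axis). Circles are the female and triangles the male library, and bars their mean. Ifitm1 peaks in HSCP-2 (1081 and 1339 CPM), Ifitm6 rises from Myelo-1 to Myelo-4, Ifitm3 is high at both ends and lowest in Gran-2, and Ifitm2 varies least.

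Ifitm3 was high at both ends and low in the middle of the granulocytic series. It was highest in Myelo-4 (1018 and 1469 CPM) and DC (1068 and 1186), which overlapped. HSCP-1 (822 and 884), Meg (699 and 708) and HSCP-2 (617 and 730) came next, and Meg and HSCP-2 overlapped. Myelo-3 was 487 and 497 CPM, cMoP 459 and 469, and MDP 398 and 392, each apart from the next in both libraries.

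Multi-Lin (315 and 312 CPM) and IG2 (318 and 308) did not differ beyond the libraries' spread. Below them stood Myelo-2 (297 and 306), Mono (235 and 254), MP (215 and 219), Eryth (164 and 206) and Myelo-1 (143 and 170), the last 2 overlapping. Gran-1 was 96.1 and 84.7 CPM and Gran-2 42.5 and 40.3, the lowest of the 17. Within the monocytic clusters Ifitm3 was therefore higher in cMoP and MDP than in Mono in both libraries. Within the granulocytic series the lowest point was Gran-2, and each Myelo cluster stood above the one numbered before it in both libraries. The highest mean was 17 times the lowest over the 12 larger clusters. With each cell thinned to 5000 UMIs, an Ifitm3 UMI was found in 16.3% and 17.2% of Gran-2 cells and in 83.1% and 83.4% of Myelo-3 cells.

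Ifitm6 marked the Myelo end. It was 133 and 139.8 CPM in Myelo-1, 636 and 475 in Myelo-2, 1281 and 899 in Myelo-3, and 3191 and 2367 in Myelo-4, with no overlap between neighbours. The female library was higher in Myelo-2, Myelo-3 and Myelo-4. Next came DC at 86.6 and 66.5 CPM, from 9 and 12 UMIs. In all other clusters it was at most 27.4 CPM, the female value of cMoP, and no Ifitm6 UMI was found among 24 HSCP-1 cells. In HSCP-1 a count of 0 allows up to 23.9 and 26.8 CPM (3 counts per library, for counting error only).

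An Ifitm6 UMI was present in 95.9% and 90.9% of Myelo-2 cells, 98.8% and 96.8% of Myelo-3 cells and all Myelo-4 cells. In HSCP-2, which should lack a late neutrophil gene, 6.25% and 3.103% of cells had one (4.35% and 2.26% when thinned to 5000 UMIs, against 86.5% and 76.3% in Myelo-2), with medians of 8298.5 and 7140.5 UMIs per cell against 13669.5 and 12673 in Myelo-2. Free RNA in droplets gives UMIs in cells that do not express a gene, and 1 source of it would keep its genes in 1 ratio in every cluster of a library. The neutrophil transcript S100a8 was 2719.8 CPM in female HSCP-2 and 178972 CPM in female Myelo-2. Per 1000 S100a8 UMIs there were 1.62 to 14.5 Ifitm6 UMIs in the Myelo clusters, 2.82 and 1.78 in HSCP-2, 2.97 and 2.72 in Multi-Lin and 1.78 and 1.35 in Gran-1. The ratio was higher than in Multi-Lin, in both libraries, in MP (3.46 and 3.17), MDP (5.13 and 5.71), Mono (5.44 and 5.98), Eryth (5.63 and 6.58), cMoP (9.39 and 8.91) and DC (28.9 and 30). The ratios thus differed between clusters, with Gran-2 (0.71 and 0.46) lowest apart from HSCP-1. They ranged widely within the Myelo clusters, and S100a8 itself was higher in Gran-2 (21189.5 and 22225 CPM) than in HSCP-2. The ratios therefore cannot separate free RNA from expression. How much of the low Ifitm6 level outside the Myelo clusters and DC came from free RNA was not tested, and these levels are given as upper limits of expression.

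Ifitm2 was present throughout. It ranged only from 814 and 841 CPM in Meg to 388 and 371 in Myelo-2 over the 12 larger clusters, a ratio of 2.18. HSCP-2 (761 and 821 CPM), Multi-Lin (764 and 765), IG2 (756 and 713), cMoP (727 and 726), MDP (699 and 719), Mono (679 and 678), MP (654 and 653) and HSCP-1 (655 and 652) lay between 652 and 821 CPM. Eryth (678 and 768) and Gran-1 (649 and 641) were close to these. Only DC was lower than Myelo-2, at 202 and 349 CPM from 21 and 63 UMIs.

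The lower Ifitm2 values of the Myelo clusters depended on the denominator. Gran-2 was 537 and 524 CPM, Myelo-1 421 and 456, Myelo-3 525 and 477, and Myelo-4 674 and 603. S100a8 alone took 178972 CPM in female Myelo-2, and without the 20 genes with the most UMIs in the Myelo clusters the mean log2 ratio of Gran-1 to Myelo-2 changed sign, to -0.10. In UMIs per cell Ifitm2 was lower in HSCP-2 than in Gran-1 (mean log2 ratio -1.25), whereas Ifitm1 was still higher there (3.95).

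The share that each gene took of the 4 genes' UMIs changed along the series. The assay tags 3′ ends and the counts were not scaled by length. In HSCP-2 Ifitm1 took 43.8% and 46.3%, Ifitm2 30.9% and 28.4%, and Ifitm3 25.0% and 25.2%. In Gran-2 Ifitm2 took 87.7% and 88.1%. In Myelo-3 Ifitm6 took 55.0% and 45.4%, and in Myelo-4 64.9% and 51.3%. In DC Ifitm3 took 78.2% and 73.3%. The summed level of the 4 genes was lowest in Gran-2 (613 and 595 CPM) and highest in Myelo-4 (4919.6 and 4612 CPM), with 2467 and 2894 CPM in HSCP-2.

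**Figure D2:**
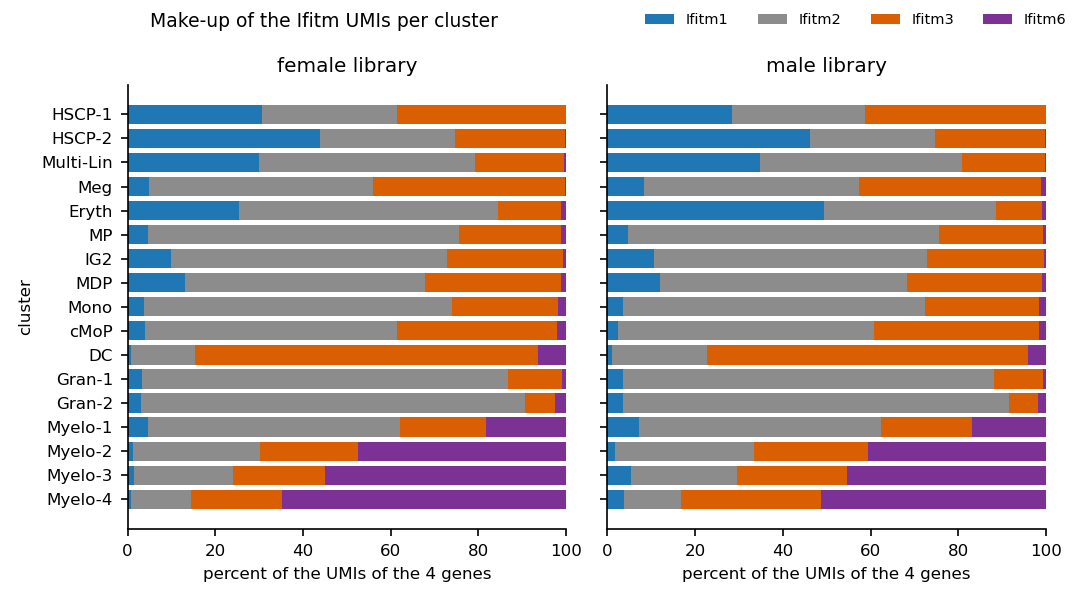
Share of each gene (colour) among the UMIs of the 4 genes, in percent, per cluster and library. Of the 4 genes, Ifitm1 takes the largest share in HSCP-2 (43.8% and 46.3%), Ifitm2 in Gran-2 (87.7% and 88.1%), Ifitm3 in DC (78.2% and 73.3%) and Ifitm6 in Myelo-4 (64.9% and 51.3%). In Eryth Ifitm1 takes 25.4% and 49.5%.

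To test these differences, UMIs were summed per library over 4 classes of clusters: early (HSCP-1, HSCP-2, Multi-Lin), monocytic (Mono, MDP, cMoP), Gran (Gran-1, Gran-2) and Myelo (Myelo-1 to Myelo-4). The 8 sums were fitted together with edgeR's quasi-likelihood test, with Benjamini-Hochberg adjustment over 11982 genes and a threshold of 0.05. CPM values beside these tests include the TMM scaling of the fit, and SDs are over the 2 libraries. The 3 comparisons with Gran share the Gran sums. The clusters were built from RNA, so these calls describe the clusters. The library is a term of the fit, so a difference between the 2 libraries that all classes share does not enter the p-values. The spread of each gene was estimated with help from the other genes tested, so p-values do not rest on that gene's sums alone. The 95% intervals were taken from the SE with a normal distribution.

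Between the early and the Gran class, 3 of the 4 genes passed, against 63.6% of all genes tested. Ifitm1 was 20.5-fold higher in early cells, at 445 and 548 CPM against 23.4 and 25.1 (log2 fold change 4.36 ± 0.15, SE; adjusted p = 8.57e-14). By this change it ranked 103 of 11982 from the top. Ifitm3 was 3.89-fold higher, at 290.4 and 299 CPM against 78.9 and 72.9 (1.96 ± 0.06; adjusted p = 1.94e-14). For both genes the classes did not overlap. Ifitm6 was lower in early cells, at 6.12 and 4.21 CPM against 9.23 and 6.62 (-0.62 ± 0.14; adjusted p = 0.000767). Both levels are upper limits, as said above, so the difference is one of counts in these droplets. The male Gran value was close to the female early value, and without the library term the adjusted p was 0.0618. Ifitm2 did not pass (612 ± 13.5 against 602 ± 5.71 CPM, log2 fold change 0.03, 95% interval -0.06 to 0.12, adjusted p = 0.646). That call depends on the TMM scaling. Without it Ifitm2 was higher in early cells, at 763 and 771 CPM against 619 and 612 in Gran cells.

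Between the monocytic and the Gran class, 3 of the 4 passed, against 41.6% of all genes tested, and all 3 were higher in monocytic cells. Ifitm3 was 3.56-fold higher, at 255 and 283 CPM (1.83 ± 0.06, SE; adjusted p = 6.39e-14). Ifitm1 was 2.20-fold higher, at 55.8 and 50.1 CPM (1.14 ± 0.16; adjusted p = 1.39e-05). Most of that difference lay in MDP: without it the log2 fold change was 0.52. Ifitm6 was 1.97-fold higher at 15.9 and 14.9 CPM (0.98 ± 0.11, adjusted p = 1.62e-06), with both levels upper limits of expression. It did not pass when Gran-2 alone stood for Gran (0.27, adjusted p = 0.106). Ifitm2 did not pass (645 ± 14.3 against 602 ± 5.71 CPM, log2 fold change 0.10, adjusted p = 0.0877). Without the TMM scaling it was 685 and 689 CPM in monocytic cells against 619 and 612 in Gran cells.

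Between the Myelo and the Gran class, 3 of the 4 passed, against 64.7% of all genes tested, and all 3 were higher in Myelo cells. Ifitm6 was 99.96-fold higher, at 975 and 626 CPM against 9.23 and 6.62 (6.64 ± 0.09, SE; adjusted p = 1.44e-19), and ranked 10 of 11982 from the top. Free RNA in the Gran level would make this fold too small. Ifitm3 was 5.64-fold higher, at 439 and 415 CPM (2.49 ± 0.06; adjusted p = 4.84e-16). Ifitm1 was 2.55-fold higher, at 39.9 and 83.1 CPM (1.35 ± 0.16; adjusted p = 9.56e-07), with the few cells described above in both libraries. Its log2 ratio was 0.79 (female) and 1.73 (male). Without the TMM scaling Ifitm1 was 28.3 and 62.8 CPM in Myelo cells against 24.2 and 25.4 in Gran cells. Leaving out Mcpt8-high cells as well, it was 24.3 and 54.8 CPM against 24.1 and 23.1. The female values then hardly differed, whereas the male values still did. Ifitm2 did not pass, at 603 ± 31.9 against 602 ± 5.71 CPM (0.00, 95% interval -0.09 to 0.09; adjusted p = 0.977). This call rests on the TMM scaling: without it Ifitm2 was 443 and 438 CPM in Myelo cells against 619 and 612 in Gran cells.

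The early and the monocytic class differed in 2 of the 4 genes, against 54.2% of all genes tested. Ifitm1 was 9.32-fold higher in early cells (3.22 ± 0.15, SE; adjusted p = 6.09e-12). Ifitm6 was 3.03-fold lower, at 5.17 ± 1.35 against 15.4 ± 0.699 CPM (-1.60 ± 0.14; adjusted p = 2.60e-08), with both levels again upper limits of expression. Ifitm3 did not pass, at 290.4 and 299 against 255 and 283 CPM (0.13, 95% interval 0.02 to 0.24; adjusted p = 0.0668). That call turned on the clusters: without Multi-Lin the early class was higher by 0.88 (adjusted p = 6.62e-10).

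The Myelo and the monocytic class differed in Ifitm6 and Ifitm3, against 65.2% of all genes tested. Ifitm6 was 50.8-fold higher in Myelo cells (5.67 ± 0.09, SE; adjusted p = 1.07e-18) and Ifitm3 was 1.59-fold higher (0.66 ± 0.06; adjusted p = 1.51e-08). Ifitm1 did not pass (0.21 ± 0.16; adjusted p = 0.265), and its libraries went opposite ways, with log2 ratios of -0.47 and 0.73. Without Mcpt8-high cells, those with 1000 CPM or more of the basophil and mast cell protease gene Mcpt8, it was 0.02. Ifitm2 did not pass (-0.10, adjusted p = 0.0704). Without the TMM scaling it was 443 and 438 CPM in Myelo cells against 685 and 689 in monocytic cells.

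**Figure D3:**
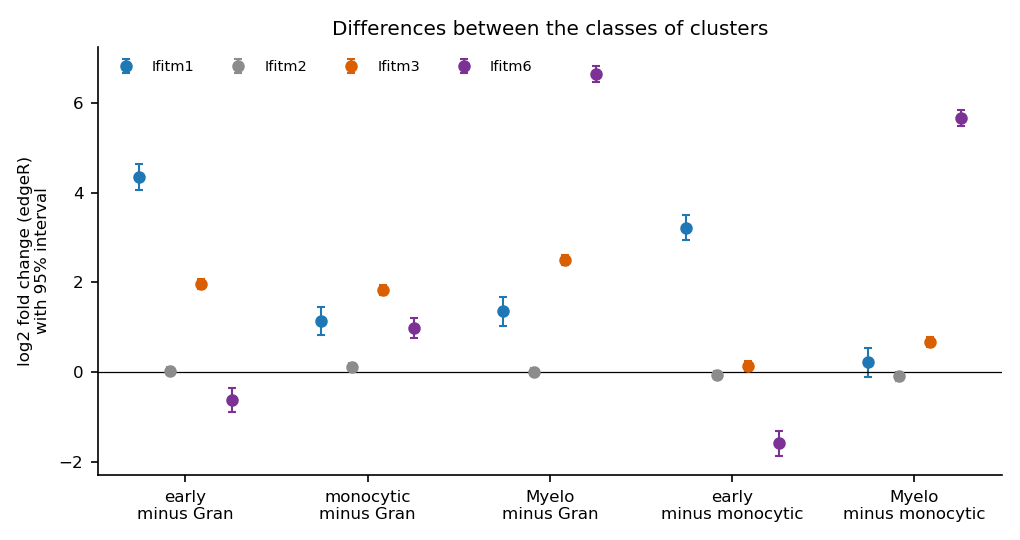
Log2 fold change of each gene (colour) in the 5 comparisons of classes, with 95% intervals from the SE of edgeR's fit to 8 sums. Ifitm6 reaches 6.64 in Myelo minus Gran, Ifitm1 4.36 in early minus Gran, Ifitm3 is above 1.8 in the 3 comparisons with Gran, and Ifitm2 lies between -0.10 and 0.10 in all 5.

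The antibody counts are a second readout of the same cells. Cells of each library were divided into 5 equal groups, quintiles, by an antibody count, and CPM was computed per quintile. Since these are cells of 1 library each, the values are descriptions with no test. Quintiles of all cells or of a class may also differ in their mix of clusters, and the part of that mix was not tested. Over all cells, the quintile with the most Ly-6G, a surface protein of mature neutrophils, had 747 and 402 CPM of Ifitm6 against 11.4 and 7.95 in the lowest quintile. By CD11b, an integrin of myeloid cells, the highest quintile had 667 and 405 CPM of Ifitm6 against 9.93 and 7.25. By Ly-6C, which monocytic and granulocytic cells carry, Ifitm1 was 419.9 and 482 CPM in the lowest quintile and 23.3 and 26.9 in the highest.

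Within HSCP-2, Ifitm1 varied with CD117, the receptor for stem cell factor. From the lowest to the highest quintile of CD117 it was 2190.2, 1081, 1139.9, 757 and 516 CPM in the female library (51 or 52 cells each) and 2787, 1676, 1039.8, 887 and 758 CPM in the male library (58 cells each). The lowest quintile stood above the others in both. With quintiles cut on the deposited log share of CD117 instead of its count, the change was smaller in the female library, at 1813, 1161, 900.01, 855 and 789 CPM, and more even in the male library, at 2029, 1613, 1468, 1075 and 673 CPM. Its cells also held fewer UMIs in all (medians of 7045 and 5917.5 against 9405.5 and 9875.5). Thinned to 5000 UMIs per cell, Ifitm1 was 2612 and 3044 CPM in the lowest quintile and 561 and 783 in the highest. HSCP-2 held no Mcpt8-high cell among these quintiles.

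Ifitm3 also fell in HSCP-2, but less than Ifitm1. By the count it was 657 and 800 CPM in the lowest CD117 quintile and 489 and 599 in the highest. The second quintile was its highest in both libraries (758 and 894 CPM). By the log share Ifitm3 went from 615 and 918 to 468 and 585 CPM, falling at each step in the male library. Ifitm2, by the count, did not fall (682 and 741 against 739 and 833 CPM). The 10 stem and multipotent genes summed to 2339.7 and 2289.6 CPM in the lowest quintile and 2002.5 and 2140.5 in the highest. The basophil and mast cell list was 294 and 319.8 CPM in the lowest quintile against 95.2 and 232 in the highest. The dendritic cell list was 165 and 165 CPM against 42.1 and 80.5, and the megakaryocyte list went the other way, from 48.2 and 66.0 to 141 and 173. The part of these lists in the result was not tested.

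In Multi-Lin the lowest CD117 quintile was high in Ifitm1 as well, at 1206 and 1631 CPM against 312 and 409.7 in the highest. That quintile held 45 of 53 (female) and 72 of 102 (male) Mcpt8-high cells of Multi-Lin, and the basophil and mast cell list summed to 11017 and 13210.4 CPM there. Without the Mcpt8-high cells Ifitm1 in that quintile was 1114 and 1677 CPM. Ifitm3 went the other way in Multi-Lin, from 196 and 179 CPM in the lowest quintile to 384 and 348 in the highest. Over Multi-Lin, the Mcpt8-high cells had 1322 and 1360.3 CPM of Ifitm1 against 414 and 516 in the rest, and 118 and 157 CPM of Ifitm3 against 327 and 325.

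Within the Myelo class, Ifitm6 and Ifitm3 were higher with more Ly-6G. Ifitm6 went from 199 to 998 CPM between the lowest and the highest quintile in the female library. In the male library it went from 122 CPM in the lowest to 606 in the highest, with 694 in the quintile before that. Ifitm3 went from 143 and 129 CPM to 468 and 479. By Ly-6C the order was the reverse, with Ifitm6 at 1490 and 989 CPM in the lowest and 267 and 230 CPM in the highest quintile, and Ifitm3 at 549 and 577 against 186 and 197. The lowest Ly-6C quintile held shallower cells (medians of 7901.5 and 7096 UMIs against 22793 and 21599).

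Within the Gran class, Ifitm3 was lower with more CD11b, at 125 and 108 CPM in the lowest quintile and 53.2 and 59.3 in the highest. In the monocytic class, Ifitm1 was 155 and 131 CPM in the lowest Ly-6C quintile and 26.0 and 25.4 in the highest, and Ifitm3 was 362 and 366 against 237 and 256 CPM. The clusters of these classes differed as well. Ifitm3 was 96.1 and 84.7 CPM in Gran-1 against 42.5 and 40.3 in Gran-2. Ifitm1 was 168 and 153 CPM in MDP against 37.3 and 34.8 in Mono.

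**Figure D4:**
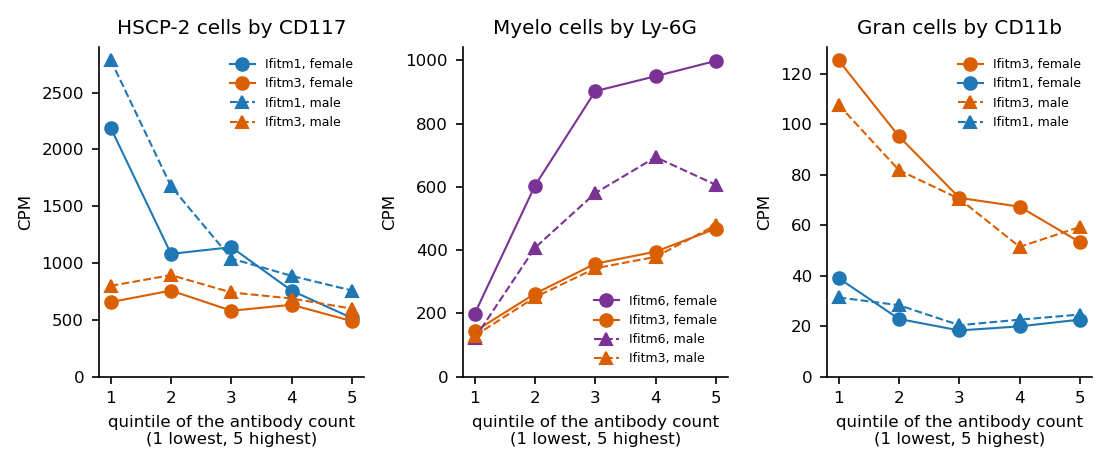
Level of Ifitm genes in CPM (vertical axes, linear) by quintiles of an antibody count within a library (horizontal axes, 1 lowest, 5 highest), with circles and solid lines for the female and triangles and dashed lines for the male library. Left, HSCP-2 cells by CD117: Ifitm1 runs from 2190.2 and 2787 CPM down to 516 and 758. Middle, Myelo cells by Ly-6G: Ifitm6 and Ifitm3 are lowest in the first quintile. Right, Gran cells by CD11b: Ifitm3 runs from 125 and 108 CPM to 53.2 and 59.3.

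Other genes of the interferon pathway were read from the same fit, and each gene called higher or lower below passed its threshold. Differences are given as log2 fold changes. Of 9 interferon ligand genes in the table, none had enough counts to be tested. Of 16 receptor and signalling genes, 10 were higher and 3 lower in early than in Gran cells, with 32% of all genes higher and 31.5% lower. Ifngr1, which encodes the ligand-binding chain of the interferon gamma receptor, was lower in early cells (-1.68), and Jak1, a receptor-bound kinase, was higher (0.58). Irf7, which amplifies interferon transcription, was 2.16 higher, and Irf9, the DNA-binding part of ISGF3, 1.32 higher.

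Of 42 interferon-stimulated genes tested, 32 were higher in early than in Gran cells and none was lower (32% and 31.5% of all genes). Their median log2 fold change was 0.80, against 0.01 over all genes tested. Without Mcpt8-high cells 33 were higher and none lower. Rtp4, a receptor transporter with antiviral activity, was 3.47 higher, and Iigp1, an immunity-related GTPase gene, was 5.07 higher from a very low level (mean 0.56 CPM). Psmb8, an immunoproteasome subunit gene and the most abundant of the list, was 0.37 higher.

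In the comparisons without the early class this list was split. Monocytic against Gran had 16 higher and 7 lower (20.7% and 20.9% of all genes), Myelo against Gran 13 higher and 10 lower (32.5% and 32.2%), and Myelo against monocytic 10 higher and 17 lower (31.7% and 33.5%). Early against monocytic was mostly higher, with 26 higher and 8 lower (25.7% and 28.4%). The median log2 fold change of the list there was 0.77, against -0.02 over all genes tested. Ifi27l2a was 3.52 higher in Myelo, 3.40 higher in monocytic and 2.80 higher in early cells than in Gran. Bst2, which encodes the virus-tethering protein tetherin, was lower in Myelo than in Gran cells (-1.29). Ifi30, a lysosomal thiol reductase gene, was 3.12 higher in monocytic than in Gran cells.

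Of 8 genes for partners and modifiers of Ifitm proteins, 4 were higher and 2 lower in Myelo than in Gran cells (32.5% and 32.2% of all genes). Zmpste24, which encodes a membrane protease that acts with Ifitm proteins against viruses, was 2.09 higher there, and the tetraspanin gene Cd9 was 2.70 higher. In monocytic cells 7 of the 8 were lower than in Gran (20.9% of all genes), Cd9 at -1.71 and Cd81 at -1.55. Of the other Ifitm genes, Ifitm10 was higher in Myelo than in Gran cells (4.88) and Ifitm7 lower (-2.83), at means of only 0.84 and 2.60 CPM, and Ifitm5 did not pass in any of the 5 comparisons.

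Genes around the family moved in both directions. Of 6 neighbours starting within 100 kb with a mean of 1 CPM or more, 5 were higher and 1 lower in early than in Gran cells (32% and 31.5% of all genes). In Myelo against Gran, 1 was higher (Ric8a, 0.25) and 2 were lower (Sirt3, -0.78, and Sigirr, -0.88), with 32.5% of all genes higher and 32.2% lower. Pkp3 was the neighbour with the largest early difference (2.72), from a mean of 4.4 CPM.

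The 4 genes differed from one another across clusters. Over the 17 cluster means of log2(CPM + 1), Pearson's r was 0.64 for Ifitm1 with Ifitm2, 0.31 for Ifitm1 with Ifitm3, 0.22 for Ifitm3 with Ifitm6, -0.02 for Ifitm2 with Ifitm3, -0.40 for Ifitm1 with Ifitm6 and -0.51 for Ifitm2 with Ifitm6. Of 7053 genes reaching 20 CPM in some cluster, those most like Ifitm1 were Kansl1l (0.94), Clec2d, Ddah2, Sox4 (0.92) and Zfp292. Those most like Ifitm3 were Dhrs1 (0.92) and H3f3a (0.91), and those most like Ifitm6 were Zmpste24 (0.96) and Ccdc88b (0.96). For Ifitm2 they were Abhd14a and Eef2kmt (both 0.92). The points share libraries and depth, and with either library alone only 1 or 2 of the 5 nearest genes of each member were the same.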

How the data were processed

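The authors deposited raw UMI counts per gene ID and cell, a cluster name per cell and 4 antibody tag counts per cell. Their antibody values on a natural log scale were deposited as shares within the cell and used only as an alternative. Cell Ranger 2.1.0 and the build mm10 are named in the submitters' processing notes. The annotation, cell calling, clustering, doublet removal and the treatment of reads matching several Ifitm genes, which are close relatives, are not given in the sources used. Symbols were matched to gene IDs through a RefSeq and Ensembl name table.

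No cell was removed, and no doublet caller was run. UMIs were summed per library and cluster (CPM) or class and fitted with edgeR 4.0.16 in R 4.3.3 (TMM, filterByExpr, library as covariate, 8 sums, 3 residual degrees of freedom). The SE was the size of the log2 fold change divided by the root of its F value. The procedure was tested on simulated counts. Both libraries contribute every class, so the library number pairs the sums. The members, always named, the 5 genes most like each, and lists with the 3 most abundant members and the 3 largest changes per comparison with Gran were chosen with earlier results of these data known. Alternatives included DESeq2 1.42.0, thinning to 5000 UMIs, other clusters per class and single libraries.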

Additional observations from a re-analysis of the deposited data

Results flagged for a closer look

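For 2 results the female and the male library went opposite ways. The log2 ratio of Ifitm1 between the Myelo and the monocytic class was -0.47 (female) and 0.73 (male). That of Ifitm2 between the Myelo and the Gran class was 0.079 and -0.062. With 1 library per sex the difference between the libraries was not tested, and sex and library cannot be told apart. In the male library 22 of 1295 Myelo cells held 38.1% of the Ifitm1 UMIs, against 7 of 991 cells and 29.9% in the female library.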

How the results depend on the processing

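Each class comparison of each gene was refitted under 14 alternatives, and 248 of the 280 resulting values kept their direction and their side of the threshold. With each cluster as 1 sum, 4852 genes passed in early minus Gran (7616 in the fit reported above) and 3940 in early minus monocytic (6489). In monocytic minus Gran, 3295 passed with DESeq2 and 2812 with every cell thinned, against 4987. With each cluster as 1 sum the median over all genes also moved, to -0.14 in early minus Gran, -0.37 in Myelo minus Gran, -0.13 in early minus monocytic and -0.34 in Myelo minus monocytic. Of the genes passing there, 1935 were higher and 2917 lower in early minus Gran (3840 and 3776 above), and 2086 and 3367 in Myelo minus Gran (3897 and 3861). The per-cluster values of single genes below include these shifts. The thinned and per-cluster fits hold fewer UMIs or more variable sums; for the others the cause was not tested. The classes of a library come from the same animals, so the library number is a replicate block in the fit; without this block the Ifitm6 difference of early minus Gran was -0.62 and no longer passed (adjusted p = 0.0618, edgeR quasi-likelihood test).

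The Ifitm2 differences, all close to 0, changed most often. In early minus Gran, Ifitm2 was -0.0015 with no low-count filter, -0.077 with each cluster as 1 sum, -0.081 without Multi-Lin, 0.19 when Gran-2 alone stood for Gran and -0.0022 without Mcpt8-high cells, and 0.023 to 0.038 with 1 library left out. In monocytic minus Gran it was 0.10 with only the 4 sums of that comparison, 0.15 per cluster and 0.24 against Gran-2. In Myelo minus Gran it was -0.027 with no filter, 0.21 per cluster, 0.15 thinned, 0.16 against Gran-2 and 0.18 without Myelo-1, and -0.062 to 0.079 with 1 library left out. In early minus monocytic it was -0.23 per cluster and -0.18 without Multi-Lin, and -0.076 to -0.067 with 1 library left out. In Myelo minus monocytic it was -0.11 with no filter, 0.063 per cluster, 0.0037 thinned, -0.11 without MDP and 0.072 without Myelo-1.

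The Ifitm3 difference of early minus monocytic was 0.12 with no filter, 0.16 with 4 sums, 0.38 per cluster, 0.21 thinned, 0.88 without Multi-Lin, 0.22 without MDP, 0.16 with Gran-2 alone as Gran and 0.17 without Mcpt8-high cells. Ifitm3 in Myelo minus Gran was 2.49 to 2.51 with 1 library left out. Ifitm6 in monocytic minus Gran was 0.27 against Gran-2. Ifitm1 in Myelo minus monocytic was 0.21 with no filter and 0.83 without MDP, and -0.47 to 0.73 with 1 library left out. Among ratios of levels (log2), Ifitm2 in HSCP-2 over Gran-1 was -1.25 as UMIs per cell, and in Gran-1 over Myelo-2 it was -0.10 without the 20 most abundant genes; across all cells, the Ifitm1 change over CD11b quintiles was 1.24 when quintiles were cut on the share of antibody counts. The cause of these changes was not tested. With 1 library left out there are no residual degrees of freedom, so those values carry no test, and the number of genes passing was not computed.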
